A study of Mus musculus with 8 samples.

Results

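The 10 genes described here mark the cells of the small vessels of the brain, and were taken by gene name from the 54532 genes listed in the deposited count table: the 7 endothelial genes Cldn5, Slc2a1, Mfsd2a, Abcb1a, Pecam1, Flt1 and Ly6c1, and the 3 pericyte genes Pdgfrb, Rgs5 and Vtn. They were picked by name and not by a rule on their values, though earlier results of these data were known. All 10 were among the 17195 genes with enough counts to be tested. RNA was sequenced from the cortex of 8-mo-old C57BL/6 mice, 1 library per mouse, in 2 groups of 4. PS19 mice carry a transgene for human 1N4R tau with the P301S mutation, which is driven in this line by the mouse prion promoter. Adrb1+/m;PS19 mice carry the same transgene and 1 copy of Adrb1-A187V, a knock-in point mutation of the beta1-adrenergic receptor. All 8 mice therefore carry the tau transgene, non-transgenic mice were not analysed here, and all were singly housed on a 12:12 light cycle. The study asked how the Adrb1 mutation changes gene expression in cortex with tau pathology. The question for these genes is whether the vascular markers differ by genotype, and how they vary together over the mice.

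Brain endothelial cells form the blood-brain barrier: tight junctions seal the space between them, transporters carry glucose and lipids inward, efflux pumps return drugs to the blood, and little material crosses in vesicles. Pericytes lie on the outside of the capillary within the same basement membrane and are held there by PDGF-B from the endothelium acting on PDGF receptor beta. They are known to maintain the barrier, partly by restraining vesicular transport in the endothelium. Both are minor cell types of the cortex, and in bulk tissue fewer cells of a type and less RNA per cell cannot be told apart.

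The 8 libraries held 14653222 to 21223754 gene counts, with normalization factors of 0.990 to 1.01, and no pair of libraries of the same genotype agreed within sampling noise (chi-square per degree of freedom at least 4.87). Levels are given as CPM, the count scaled to a common normalized library size. Within each genotype, values are listed in a fixed order of mice: m677, m668, m665 and m659 for PS19, then m671, m661, m660 and m658 for Adrb1+/m;PS19. Markers of cortical excitatory neurons summed to 4773 to 5602 CPM, against 250 to 309 CPM for the 7 endothelial genes and 159 to 195 CPM for the 3 pericyte genes. Adrb1 itself was at 30.7 to 41.2 CPM and did not pass the test (log2 fold change −0.07, SE 0.09, edgeR unadjusted p = 0.458), so its count does not check the genotype labels, since a point mutation need not change it.

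The promoters of 4 of the genes are shown, those whose RefSeq start is also the start of the gene in the count table. They were not picked by covariation, which is described further on. Flt1 and Rgs5 form the endothelial and pericyte pair with the highest correlation. Cldn5 and Mfsd2a had lower median correlations with the other genes. Each is the 250 bases 5′ of the RefSeq start in GRCm38.p6, the build of the count table, on the strand of the gene. Capitals mark GGAA or, for the other strand, its reverse complement TTCC. GGAA is the core of the sites bound by ETS factors, a family with known roles in endothelial gene expression.
Cldn5, chr16:18776597-18776846, plus strand: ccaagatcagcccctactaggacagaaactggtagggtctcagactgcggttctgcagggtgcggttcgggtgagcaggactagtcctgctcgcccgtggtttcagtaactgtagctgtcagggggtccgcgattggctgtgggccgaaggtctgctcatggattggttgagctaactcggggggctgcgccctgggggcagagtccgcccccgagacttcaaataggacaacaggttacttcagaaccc
Mfsd2a, chr4:122961189-122961438, minus strand: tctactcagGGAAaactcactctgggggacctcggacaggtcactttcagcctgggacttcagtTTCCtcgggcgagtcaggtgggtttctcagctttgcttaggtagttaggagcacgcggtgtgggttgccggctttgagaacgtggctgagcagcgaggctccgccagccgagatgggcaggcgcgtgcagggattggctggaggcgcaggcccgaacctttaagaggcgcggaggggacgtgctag
Flt1, chr5:147726012-147726261, minus strand: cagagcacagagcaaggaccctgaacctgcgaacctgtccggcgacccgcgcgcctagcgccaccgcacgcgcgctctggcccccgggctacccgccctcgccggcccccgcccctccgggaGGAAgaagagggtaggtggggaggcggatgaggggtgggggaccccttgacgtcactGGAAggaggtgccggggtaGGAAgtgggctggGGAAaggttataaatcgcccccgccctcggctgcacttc
Rgs5, chr1:169655251-169655500, plus strand: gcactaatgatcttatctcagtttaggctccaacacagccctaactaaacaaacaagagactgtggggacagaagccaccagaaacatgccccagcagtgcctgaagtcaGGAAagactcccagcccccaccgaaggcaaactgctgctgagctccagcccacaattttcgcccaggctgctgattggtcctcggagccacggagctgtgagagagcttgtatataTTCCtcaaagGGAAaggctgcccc

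Flt1 had 4 of these cores and 1 TATAAA, Rgs5 had 3 cores, Mfsd2a had 2 cores and 2 copies of ACGTG, and Cldn5 had no GGAA in this window. Both strands were searched, with overlapping matches counted. Such short motifs are common: of all 32851 RefSeq promoters of this length, 93.4% held GGAA, 16.6% ACGTG, 12.4% TATAAA and 12.0% the longer CCGGAA, which contains GGAA. RefSeq gave 9 promoters for 8 of the 10 genes, of which 7 held GGAA, 2 ACGTG, 3 TATAAA and 0 CCGGAA. The printed promoters were rich in G and C, with 59.6% for Cldn5, 61.6% for Mfsd2a, 70.4% for Flt1 and 53.6% for Rgs5, against a median of 52.4% over all promoters. No binding was measured in these mice, so the matches describe the sequence alone.

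None of the 10 genes passed the test for a difference between the genotypes, and no estimate exceeded 0.15 on the log2 scale. By edgeR's quasi-likelihood test, 0 of 10 had an unadjusted p under 0.05, against 481 of 17195 genes tested (2.80%), and 0 had a Benjamini-Hochberg adjusted p under 0.05, beside 0 of 17195 over all genes (0%). At an unadjusted p under 0.05, DESeq2 and limma-voom also called 0 of 10, and 555 and 492 of all the genes they tested. The smallest unadjusted p of the 10 was 0.129, for Abcb1a, and their edgeR adjusted p-values were all 0.9996. The genotypes overlapped for all 10 genes. Over all 17195 genes, 348 (2.02%) had all mice of one genotype above all mice of the other. With shares this small over all genes, a count of 0 among 10 says little. Fold changes were 2 positive and 8 negative, with a median of −0.02 on the log2 scale (0.00 over all genes tested), and their median size was 0.04, against 0.07 over all genes. These median sizes are not matched for precision, as SEs were 0.07 to 0.13 for the 10 genes and 0.04 to 1.04 over all genes. The lowest bound of the 10 genes' 95% intervals was 0.796-fold, for Pecam1, and the highest 1.27-fold, for Abcb1a, and the interval of each gene is given with its values.

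Cldn5 (ENSMUSG00000041378, chromosome 16, 18776847 to 18778262, plus strand) encodes claudin-5, the main claudin of endothelial tight junctions in the brain. Its level was 41.0, 44.2, 38.9 and 42.2 CPM in PS19 mice and 37.1, 46.0, 44.6 and 44.6 CPM in Adrb1+/m;PS19 mice. The lowest and the highest mouse were both Adrb1+/m;PS19, and the 4 PS19 mice lay between them. The means were 41.6 ± 2.22 and 43.1 ± 4.02 CPM (SD, n = 4 each), a log2 fold change of 0.05 (SE 0.08, fold interval 0.928 to 1.16, edgeR unadjusted p = 0.484).

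Of the transporters, Slc2a1 (ENSMUSG00000028645, chromosome 4, 119108711 to 119137983) encodes the glucose carrier GLUT1. It was at 71.2, 64.5, 64.0 and 62.4 CPM in PS19 and 61.5, 55.1, 61.1 and 70.4 CPM in Adrb1+/m;PS19 mice. In the mutant group 3 mice lay below every PS19 mouse, but m658 was near the top of the PS19 range. The means were 65.5 ± 3.88 and 62.0 ± 6.30 CPM (SD, n = 4 each; log2 fold change −0.08, SE 0.07, fold interval 0.848 to 1.06, edgeR unadjusted p = 0.303). Mfsd2a (ENSMUSG00000028655, chromosome 4, 122946850 to 122961188, minus strand) encodes a carrier of lysophospholipids that is also known to hold down transcytosis. It had the lowest CPM of the 10 genes, at 10.1, 14.1, 12.3 and 9.94 CPM in PS19 and 12.2, 10.3, 10.4 and 12.5 CPM in Adrb1+/m;PS19 mice. The mutant mice all fell within the PS19 range, and the log2 fold change was −0.03 (SE 0.13, fold interval 0.805 to 1.19, edgeR unadjusted p = 0.811).

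Abcb1a (ENSMUSG00000040584, chromosome 5, 8660077 to 8748575), 1 of the 2 mouse genes for the drug efflux pump P-glycoprotein, had the largest estimate of the 10. It was at 39.3, 35.9, 33.3 and 30.1 CPM in PS19 and 33.5, 37.4, 41.2 and 41.0 CPM in Adrb1+/m;PS19 mice. A pair of mutant mice lay above all PS19 mice, and m677 (PS19) and m671 (Adrb1+/m;PS19) crossed over. The means were 34.6 ± 3.93 and 38.3 ± 3.62 CPM (SD, n = 4 each), a log2 fold change of 0.15 (SE 0.09, fold interval 0.967 to 1.27, edgeR unadjusted p = 0.129). Without m677 it was 0.21 (edgeR unadjusted p = 0.0352) and without m671 0.20 (edgeR unadjusted p = 0.0428), and without each of the other 6 mice p stayed above 0.05. The paralog Abcb1b, which shares sequence with Abcb1a and may share reads, was at 3.64 to 6.94 CPM with a log2 fold change of 0.19 (SE 0.20, edgeR unadjusted p = 0.341).

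Of the endothelial surface proteins, Pecam1 (ENSMUSG00000020717, chromosome 11, 106654217 to 106750628, minus strand) encodes CD31, an adhesion molecule at the contacts between endothelial cells. It was at 24.5, 18.7, 22.0 and 18.9 CPM in PS19 and 15.1, 22.2, 23.5 and 20.5 CPM in Adrb1+/m;PS19 mice. The low mouse was m671, with the other 3 mutant mice inside the PS19 range (log2 fold change −0.05, SE 0.13, fold interval 0.796 to 1.18, edgeR unadjusted p = 0.720). Flt1 (ENSMUSG00000029648, chromosome 5, 147561604 to 147726011, minus strand) encodes VEGF receptor 1, which binds VEGF-A tightly and limits its action on the main signalling receptor. It was at 75.7, 80.1, 80.2 and 62.2 CPM in PS19 and 67.4, 71.1, 74.1 and 84.8 CPM in Adrb1+/m;PS19 mice. The means of Flt1 were nearly the same, 74.5 ± 8.51 and 74.4 ± 7.50 CPM (SD, n = 4 each; SE of the log2 fold change 0.09, fold interval 0.875 to 1.14, edgeR unadjusted p = 0.968), with the lowest mouse in PS19 and the highest in the mutant group.

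Ly6c1 (ENSMUSG00000079018, chromosome 15, 75044018 to 75048830, minus strand) encodes a lipid-anchored surface antigen that is abundant on brain endothelium. It was at 31.4, 27.1, 28.0 and 27.3 CPM in PS19 and 22.7, 25.7, 27.1 and 34.7 CPM in Adrb1+/m;PS19 mice. Both extremes were again mutant mice, with SDs of 1.97 CPM in PS19 and 5.11 CPM in Adrb1+/m;PS19 (n = 4 each; log2 fold change −0.05, SE 0.11, fold interval 0.820 to 1.14, edgeR unadjusted p = 0.680). Its close neighbour in sequence, Ly6c2, an antigen of monocytes, had 0 to 7 counts per library and was not tested.

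The 3 pericyte genes were nearly level between the genotypes. Pdgfrb (ENSMUSG00000024620, chromosome 18, 61045150 to 61085061), the receptor through which endothelial PDGF-B retains pericytes, was at 26.3, 27.2, 26.3 and 23.0 CPM in PS19 and 23.9, 24.4, 28.0 and 26.4 CPM in Adrb1+/m;PS19 mice. Its means of 25.7 ± 1.85 and 25.7 ± 1.92 CPM (SD, n = 4 each) gave a log2 fold change with an SE of 0.08 and a fold interval of 0.885 to 1.13 (edgeR unadjusted p = 0.987), and it was the least variable of the 10 genes over the 8 mice. Rgs5 (ENSMUSG00000026678, chromosome 1, 169655501 to 169695813) encodes a regulator that shortens G-protein signals and is a standard pericyte marker. It was the highest of the 10 in CPM, at 95.9, 91.2, 102.4 and 77.6 CPM in PS19 and 80.1, 76.5, 102.2 and 103.3 CPM in Adrb1+/m;PS19 mice. The mice fell into high and low values in both genotypes, with means of 91.8 ± 10.5 and 90.5 ± 14.2 CPM (SD, n = 4 each; log2 fold change −0.02, SE 0.11, fold interval 0.842 to 1.15, edgeR unadjusted p = 0.842).

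Vtn (ENSMUSG00000017344, chromosome 11, 78499091 to 78502324) encodes vitronectin, a secreted adhesion protein that in brain is made mainly by pericytes and binds integrins on endothelial cells. It was at 68.5, 61.6, 57.1 and 58.2 CPM in PS19 and 54.8, 63.5, 65.2 and 58.5 CPM in Adrb1+/m;PS19 mice. The lowest mouse was m671 and the highest m677, so the extremes were 1 of each genotype (log2 fold change −0.02, SE 0.07, fold interval 0.884 to 1.10, edgeR unadjusted p = 0.793).

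**Figure D1:**
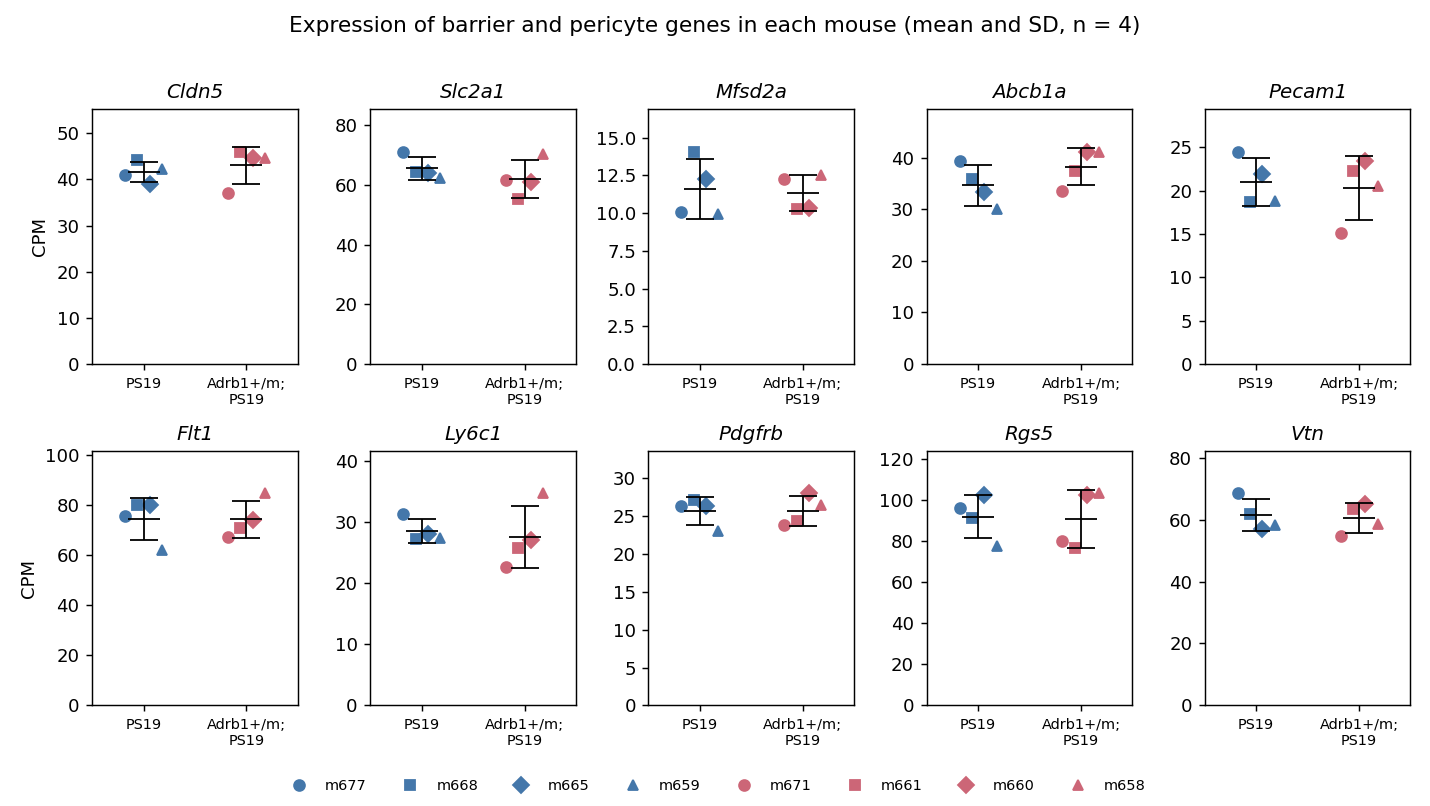
Level of each of the 10 genes in CPM (linear axes from 0) in each mouse, by genotype, with the mean and SD of 4 mice per genotype. The genotypes overlap in all 10 panels, and m659 (PS19) or m671 (Adrb1+/m;PS19) is the lowest mouse in 8 of them.

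**Figure D2:**
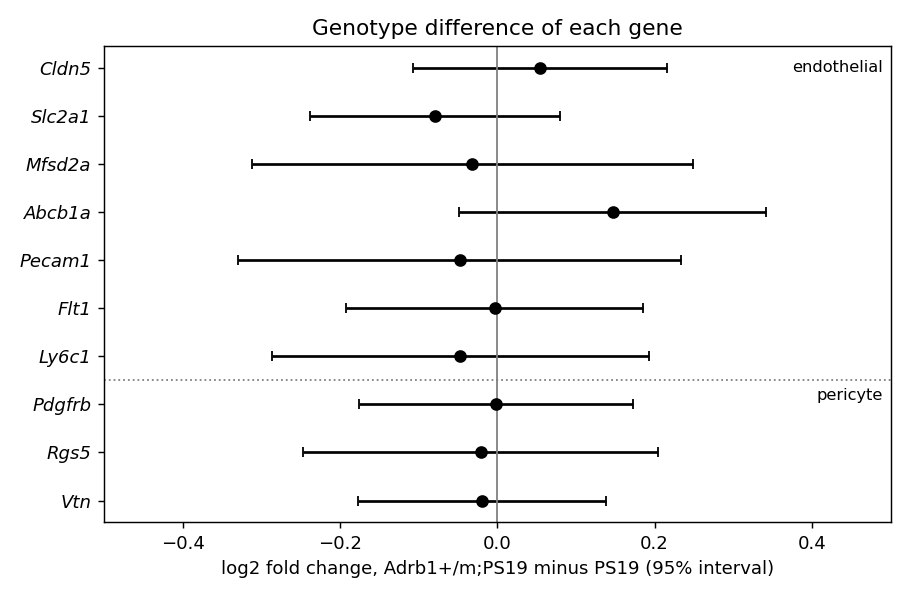
Log2 fold change of each gene, Adrb1+/m;PS19 minus PS19 (point), with its 95% interval from the edgeR fit (bar, 4 mice per genotype). All 10 intervals cross 0, and the largest estimate is 0.15 for Abcb1a.

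Levels can be compared between the genes only per length of transcript. As CPM per kilobase of gene length, the mean over 8 mice was highest for Vtn (30.0, range 27.0 to 33.8) and Cldn5 (29.9, range 26.2 to 32.5). Rgs5 (20.1), Slc2a1 (18.2) and Ly6c1 (16.7) came next, then Abcb1a (6.66), Flt1 (5.51), Mfsd2a (5.10), Pdgfrb (4.69) and Pecam1 (3.32). Ranges over mice did not overlap between Cldn5 and Rgs5, Ly6c1 and Abcb1a, or Pdgfrb and Pecam1, whereas each other neighbour in this order overlapped the next. The receptor Pdgfrb was thus below the other pericyte genes in level per length, and Cldn5 was above the other endothelial genes. The lengths are those of the deposited table, 1 per gene.

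The spread between mice exceeded what counting alone would give. Coefficients of variation over the 8 mice ran from 6.80% for Pdgfrb to 14.8% for Pecam1, and were 1.45 times (Pdgfrb) to 5.10 times (Rgs5) the value of Poisson counting. Mfsd2a, with 165 to 260 counts per library, was the least deeply counted, and its coefficient of variation of 13.2% was 1.87 times that of counting. The lowest of the 8 mice was m671 for 4 genes (Cldn5, Pecam1, Ly6c1 and Vtn), m659 for another 4 (Mfsd2a, Abcb1a, Flt1 and Pdgfrb) and m661 for Slc2a1 and Rgs5. The highest was m677 or m658 for 3 genes each. The low mice thus came from both genotypes.

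The genes varied together to a moderate degree. Over the 45 pairs, the median Pearson's r of log2 CPM across the 8 mice was 0.47, 39 pairs were positive and 6 (13.3%) had r over 0.7. Over all 147825415 pairs of genes tested, the median r was 0.00, 90% of pairs lay between −0.64 and 0.64, and 3.16% had r over 0.7. With values centred within genotype the median of the 45 pairs was 0.48. No single pair passed correction: 6 of the 45 had a raw p under 0.05 for r by exact permutation (2-sided), and 0 did after Benjamini-Hochberg adjustment over the 45 pairs, for r or for Spearman's rho. Leaving out the 2 mice farthest from the median of the first gene in each pair lowered the median to 0.31.

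Pairs within and across the cell types were described separately. The median r was 0.50 over the 21 pairs of an endothelial with a pericyte gene (20 positive), 0.38 over the 21 endothelial pairs (16 positive) and 0.48 over the 3 pericyte pairs, and this ordering was not tested. The highest pair was Pdgfrb and Rgs5, both pericyte genes, at r = 0.86 (exact permutation p = 0.013, adjusted p = 0.212), with rho = 0.62 (exact permutation p = 0.115, adjusted p = 0.470) and r = 0.75 without m659 and m671. Flt1 and Rgs5, whose promoters are printed above, followed at r = 0.81 (exact permutation p = 0.0161, adjusted p = 0.212), with rho = 0.83 (exact permutation p = 0.0154, adjusted p = 0.346) and r = 0.71 without m659 and m658. In both pairs the relation kept its sign and most of its size without the extreme mice.

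Mfsd2a stood at the other end. Its r with Vtn was −0.48 (exact permutation p = 0.227, adjusted p = 0.440; rho = −0.29, exact permutation p = 0.501, adjusted p = 0.845) and −0.93 without m668 and m659. Its r with Pecam1 was −0.48 as well (exact permutation p = 0.240, adjusted p = 0.440; rho = −0.43, exact permutation p = 0.299, adjusted p = 0.673) and −0.64 without the same mice. With Flt1, the r of Mfsd2a was 0.59 (exact permutation p = 0.130, adjusted p = 0.437), and 0.35 without m668 and m659. The median r of each gene with the other 9 was highest for Flt1 (0.59), Rgs5 (0.58) and Abcb1a (0.56). It was lower for Vtn (0.33), Cldn5 (0.31) and Slc2a1 (0.27), and near 0 for Mfsd2a, whose values had both signs. Of the 3 transporters, Abcb1a was among the genes with the highest median r, and Slc2a1 and Mfsd2a among those with the lowest.

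**Figure D3:**
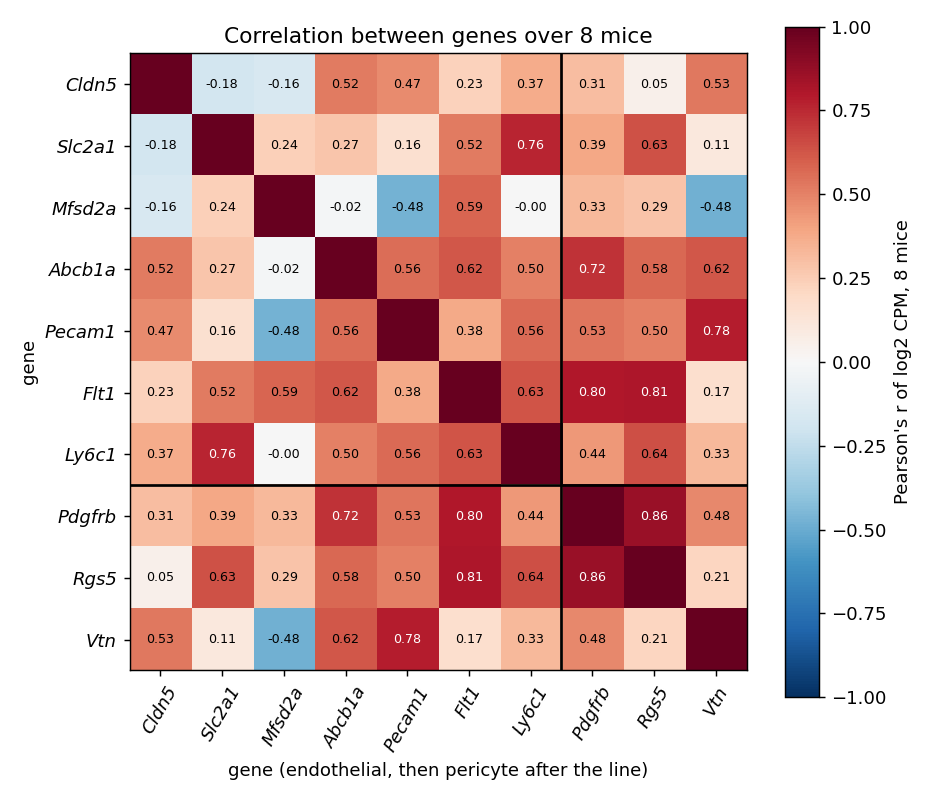
Pearson's r of log2 CPM over the 8 mice for each of the 45 pairs (colour scale), with the 7 endothelial genes first and the 3 pericyte genes after the line. Values run from −0.48 (Mfsd2a with Vtn) to 0.86 (Pdgfrb with Rgs5).

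A score was made for each mouse as the average deviation of a list's genes, each taken as log2 CPM relative to its own mean across mice. The endothelial score was 0.08, 0.05, 0.01 and −0.13 in PS19 and −0.16, −0.03, 0.03 and 0.15 in Adrb1+/m;PS19 mice. The pericyte score was 0.10, 0.04, 0.04 and −0.15 in PS19 and −0.14, −0.08, 0.13 and 0.06 in Adrb1+/m;PS19 mice. Both scores were lowest in m659 and m671, 1 mouse of each genotype, and ranked the mice alike (r = 0.85, rho = 0.76), but r was 0.53 without those 2 mice. Neither score followed the number of counts (r = −0.03 for the endothelial and −0.07 for the pericyte score).

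Other markers of the same cells gave a similar order of mice for pericytes, and a less stable one for endothelium. The pericyte score had r = 0.94 (rho = 0.98) with the score of 16 other pericyte markers, and 0.89 without m659 and m671. With 17 other endothelial markers, the endothelial score had r = 0.81 (rho = 0.64), which rested on those mice (0.09 without them). These relations were not particular to the cell type. The 17 other endothelial markers had r = 0.86 (rho = 0.83) with the pericyte score, and 0.66 without both mice. The 16 other pericyte markers had r = 0.80 (rho = 0.81) with the endothelial score, and 0.58 without both mice. Among single genes, 9 of the 16 other pericyte markers had r over 0.5 with the mean standardized profile of the 3 pericyte genes, beside 10.6% of the 17185 genes that are not among the 10. Cspg4, which encodes the NG2 proteoglycan, was highest at r = 0.74, but had r = 0.86 with the same profile of the 7 endothelial genes. The transcription factor gene Foxc1 was lowest at −0.18. For the endothelial profile, 6 of the 17 other endothelial markers had r over 0.5 (10.9% of all other genes), and r ran from −0.52 for Icam2, an adhesion molecule, to 0.78 for the phosphatase gene Ptprb, with 3 below 0 (Icam2, Cd34 and Cdh5). Of the 13 other barrier transporters, 5 did, and r ran from −0.43 for Slc3a2, a subunit of amino acid carriers, to 0.86 for Slc7a1, a carrier of cationic amino acids, with 4 below 0 (Slc3a2, Tfrc, Slc7a5 and Slc16a1).

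The remaining vascular lists ranged widely. Each r given without m659 and m671 rests on the fewer mice left, and no background over all genes was made for it. With the endothelial score, r was 0.79 for vascular basement membrane genes (0.54 without m659 and m671), 0.70 for the VEGF, angiopoietin and PDGF list (0.69 without them), 0.66 for Wnt/beta-catenin genes (0.53) and 0.65 for the other transporters (0.37). With the pericyte score, it was 0.70, 0.53, 0.53 and 0.80 for these lists (0.42, 0.36, 0.20 and 0.83 without both mice). Tight junction and caveolar genes had r near 0 with both scores, at −0.06 and −0.01. Smooth muscle markers had r = −0.15 with the endothelial and −0.30 with the pericyte score, and −0.71 and −0.88 without m659 and m671. Arterial genes went from 0.33 to −0.89 with the endothelial score and from 0.53 to −0.20 with the pericyte score when the same mice were left out, and venous genes from 0.24 to 0.68 and from 0.19 to 0.54. Fibroblast markers had r of 0.22 and 0.33 (0.16 and 0.46 without them). Markers of other cells that could move with a sample's makeup had r from −0.50 (excitatory neurons) to 0.30 (reactive astrocytes) with the pericyte score over the 8 mice. Some rose without m659 and m671. With the pericyte score, astrocyte genes went from 0.27 to 0.76 and reactive astrocyte genes from 0.30 to 0.76. Microglial markers went from 0.18 to 0.84 and interneuron markers from 0.21 to 0.61. With the endothelial score, these 4 lists went from 0.14 to 0.51, 0.24 to 0.66, 0.11 to 0.74 and −0.001 to 0.25. The 8 reactive astrocyte genes summed to 337 to 1083 CPM in PS19 and 300.3 to 1092 CPM in Adrb1+/m;PS19. Most of this was Gfap, at 220 to 827 CPM in PS19 and 182 to 838 CPM in Adrb1+/m;PS19. The sum was high in m659, where the pericyte score was low, and in m677, m660 and m658, where that score was high. Single genes could differ, as Timp1 was highest in m661 (1.48 CPM). The part of these genes in the covariation was not tested.

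Red blood cell genes, which show residual blood, summed to 86.9 to 131 CPM in PS19 and 81.8 to 133 CPM in Adrb1+/m;PS19 mice, with r = 0.17 with the endothelial and −0.24 with the pericyte score (0.53 and −0.28 without m659 and m671). Whether the mice used for RNA were perfused is not given in the sources used here. Choroid plexus markers, which come from outside the cortex, ranged from 26.0 to 371 CPM in PS19 and from 28.7 to 589 CPM in Adrb1+/m;PS19, with r = 0.46 with the endothelial and 0.10 with the pericyte score (0.77 and 0.09 without them). The part of blood or choroid plexus in the vascular values was not tested. Excitatory neuron markers had r = −0.50 with both scores (−0.64 and −0.52 without m659 and m671).

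**Figure D4:**
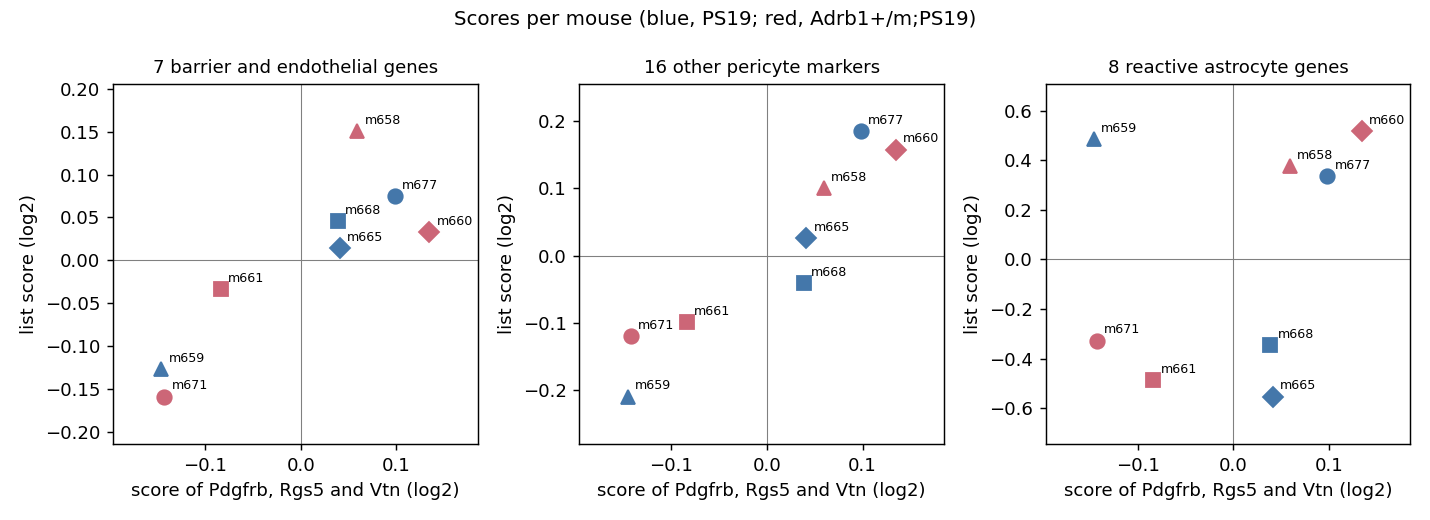
Score of the 3 pericyte genes in each mouse (x axis, log2) against the scores of the 7 endothelial genes, 16 other pericyte markers and 8 reactive astrocyte genes (y axes, log2; blue, PS19; red, Adrb1+/m;PS19). The first 2 rise together (r = 0.85 and 0.94), while the reactive astrocyte score is 0.49 in m659, the PS19 mouse with a pericyte score of −0.15.

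Few genes of the wider vascular lists passed the unadjusted threshold. Of all genes tested 2.80% did, so a count of 0 in lists this short says little. At an unadjusted p under 0.05 in edgeR, 0 genes passed among 17 other endothelial markers, 12 junction and caveolar genes, 13 other transporters, 15 genes of the VEGF, angiopoietin and PDGF ligands and receptors, 15 genes of the Wnt/beta-catenin signalling that maintains the barrier, 9 basement membrane genes, 8 smooth muscle markers, 12 fibroblast markers, 6 venous and 7 arterial genes. Median log2 fold changes were −0.05 for the other endothelial markers, 0.01 for junction genes, 0.00 for transporters and −0.02 for the 16 other pericyte markers, of which 5 were higher and 11 lower. Wnt/beta-catenin genes had the median farthest from 0 among the endothelial and pericyte lists, at 0.10, with 11 higher and 4 lower. The genotypes did not overlap for the basement membrane gene Agrn, which encodes the proteoglycan agrin, at 201 ± 4.09 CPM in PS19 and 191 ± 2.69 CPM in Adrb1+/m;PS19 (SD, n = 4 each; log2 fold change −0.07, SE 0.04, edgeR unadjusted p = 0.121). Over all genes tested, the genotypes did not overlap for 2.02%. Tagln, Selp, Sele and Gja5 had too few counts to be tested.

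Of the 16 other pericyte markers, 1 passed the unadjusted threshold and 1, the same gene, had genotypes that did not overlap, beside 2.80% and 2.02% of all genes, so the count says nothing particular of the list. Foxf2, a forkhead transcription factor of brain pericytes that is needed for barrier formation, was at 4.41, 4.28, 4.34 and 4.34 CPM in PS19 and 5.22, 4.69, 7.28 and 5.83 CPM in Adrb1+/m;PS19 mice. All 4 mutant mice were above all PS19 mice, at 62 to 130 counts per library (log2 fold change 0.40, SE 0.16, edgeR unadjusted p = 0.0281, adjusted p = 0.9996). The PS19 values had an SD of 0.05 CPM on a mean of 4.34, less than counting alone would give at such counts. The lack of overlap rests partly on this closeness. The edgeR unadjusted p was 0.121 without m660, the highest mouse, at a log2 fold change of 0.27, and 0.0501 and 0.0512 without m668 and m658. The 3 pericyte genes did not follow it, with log2 fold changes between −0.02 and 0.00.

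Markers of glia and blood gave 0 genes at an unadjusted p under 0.05, in lists of 10 astrocyte, 8 reactive astrocyte, 9 microglial, 7 oligodendrocyte, 7 choroid plexus and 5 red blood cell genes. Beside 2.80% of all genes, 3 of 7 excitatory and 3 of 6 interneuron markers had an unadjusted p under 0.05. The glutamatergic genes Slc17a7 (−0.19), Neurod6 (−0.27) and Tbr1 (−0.13) were lower in Adrb1+/m;PS19 mice and the GABAergic genes Gad2 (0.24, with no overlap of the genotypes) and Slc32a1 (0.18) higher, with the interneuron peptide gene Vip (−0.19) lower (log2 fold changes, edgeR unadjusted p between 0.00325 and 0.05). All 7 excitatory markers had a negative estimate, and the interneuron markers that did not pass were at 0.06 (Gad1), 0.02 (Pvalb) and −0.09 (Sst). None passed adjustment. Neurod6 and Gad2 kept an edgeR unadjusted p under 0.05 without any 1 mouse. Slc17a7 lost it without m668, m659, m660 or m658 (edgeR unadjusted p up to 0.0784), Slc32a1 without m677, m665, m659 or m671 (up to 0.107) and Vip without m677, m665, m671, m660 or m658 (up to 0.145). Tbr1 lost it without m665, m659 or any of m661, m660 and m658 (edgeR unadjusted p up to 0.159), and also with DESeq2's size factors (0.0509) or a minimum of 10 counts in every mouse (0.0505). Whether these differences in neurons bear on the vascular genes was not tested.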

How the data were processed

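Cortex RNA from 8 mice was sequenced as paired-end libraries. The authors aligned the reads to GRCm38 (mm10) and counted them per Ensembl gene, and they deposited the raw counts. The submitters' processing notes name HISAT2 2.0.5, featureCounts 1.5.0-p3 and DESeq2 1.20.0. Strand and multiple-mapping settings are not given in the sources used here, so reads of close copies (Abcb1a and Abcb1b, Ly6c1 and Ly6c2) could be split. The deposited table also lists, with other annotation, the gene length in bases, which was used for levels per length.

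Genotypes came from the labels. Genes kept by filterByExpr (17195 of 54532) were normalized by TMM and compared without covariates by the 2-sided quasi-likelihood test of edgeR 4.0.16 in R 4.3.3. P-values were adjusted by Benjamini-Hochberg over the whole set tested. The study's methods select by unadjusted p, so calls at an unadjusted p under 0.05 are given too. A standard error is the size of the log2 fold change divided by the square root of F. Log2 CPM used a prior count of 2. Correlations were tested by exact permutation of the 8 mice. DESeq2 1.42.0, limma-voom (limma 3.58.1), size factors, other count filters and leaving out each mouse were alternatives. The steps were tested on simulated counts. Counting error alone gives the 10 genes a coefficient of variation of 2.49% to 7.03%.

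The genes named were all 10, any gene of the fixed lists with an unadjusted p under 0.05 or with genotypes that did not overlap, the 2 highest and 2 lowest pairs, the 6 nearest genes by profile to each group, and Adrb1. Some of the nearest genes are not reported here. Other listed genes given with an r were chosen after their values were seen. The genes and lists were chosen with earlier results of these data known. Controls were littermates per the study's methods, which also state that male mice were used unless noted, but litters are not in the labels.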

Additional observations from a re-analysis of the deposited data

Results flagged for a closer look

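Each value below is the lowest or highest of the 4 mice of its genotype, with a gap to the nearest other mouse above the 95% critical value of Dixon's test for 4 values. Of 62 groups examined, 3 had such a value, and chance gives about 1 in 20, or 3.1. Cldn5 was at 37.1 CPM in m671 (Adrb1+/m;PS19), a gap of 0.835 of the range. The score of the 17 other endothelial markers was −0.15 in m659 (PS19), a gap of 0.840. These are the 2 mice that were lowest in the endothelial and pericyte scores. The score of the choroid plexus markers was 1.998 in m658 (Adrb1+/m;PS19), a gap of 0.850, and this mouse also had the highest endothelial score (0.15).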

How the results depend on the processing

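Of 130 alternative fits of the 10 genes, 105 kept the direction and the side of the unadjusted threshold. Another 23 turned the sign, all by leaving out a mouse, and the reversed estimates were at most 0.07 in size on the log2 scale. Without 1 mouse, the log2 fold change ranged from −0.099 to 0.070 for Mfsd2a, −0.12 to 0.068 for Pecam1, −0.082 to 0.039 for Flt1, −0.18 to 0.033 for Ly6c1, −0.051 to 0.030 for Pdgfrb, −0.094 to 0.052 for Rgs5 and −0.057 to 0.039 for Vtn. Cldn5 (0.02 to 0.12), Slc2a1 (−0.15 to −0.03) and Abcb1a (0.08 to 0.21) kept their sign. The number of the 10 genes with an unadjusted p under 0.05 was 0 to 1 without 1 mouse (Abcb1a, without m677 or m671), and the number among all genes 431 to 674. With no filter beyond 1 count it was 1366 of 33614 genes, of which 66 had an adjusted p under 0.05, and 0 of the 10 were called; the cause was not tested. Without 1 mouse the median r over the 45 pairs was 0.32 (without m671) to 0.51. Foxf2, Agrn and the neuron genes were added to the alternatives after seeing the data. No paired analysis was possible because mice carry separate numbers in the labels, without a litter. With 4 mice per genotype, each gene's fold interval gives the differences that its values allow, and all 10 intervals include no change.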

Other observations

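Among 12124 genes with a mean of at least 5 CPM, genes near in profile to the endothelial genes over the 8 mice included Lmf1 (r = 0.97), Phip (0.95), B130055M24Rik (0.94), Ints13 (0.94) and Itga1 (0.93). Itga1 encodes the collagen-binding integrin alpha1 and Lmf1 a factor for the maturation of lipases. For the pericyte genes they included B3glct (0.95), Plekhg2 (0.94), Ttc8 (0.93) and Pot1a (0.92). None of the genes named here was in the vascular lists. With 8 mice and this many genes, 13 genes had r over 0.9 with the endothelial profile and 13 with the pericyte profile, and these values are given as a description.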
